A study of Danio rerio with 26 samples.

Results

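The 8 genes described here are the zebrafish sestrins sesn1, sesn2 and sesn3 and the gadd45 genes gadd45aa, gadd45ab, gadd45ba, gadd45bb and gadd45ga. They were taken by gene symbol, and all 8 were found in each of 4 RNA-Seq tables that list between 28441 and 30948 genes. The embryos of the study lack, or have less of, a protein that acts in nonsense-mediated decay (NMD) of mRNA. One table compares embryos homozygous for magoh oz37 with their siblings at 21 hours post fertilization (hpf), and 2 tables compare embryos homozygous for rbm8a oz36 with theirs at 21 hpf and at 27 hpf. Both alleles are frame-shifting CRISPR deletions in the AB strain, and the siblings are a mix of wild-type and heterozygous embryos, each mutant comparison with 3 libraries against 3. The last table compares 2 libraries of upf1 morphants, wild-type embryos injected at the 1-cell stage with a splice-blocking upf1 morpholino, with 2 libraries of uninjected wild-type controls at 12 hpf. Since the controls were not injected, a response to the injection or the morpholino and one to less Upf1 cannot be told apart. Each library is from pooled whole embryos, so fewer cells of a type and less RNA per cell cannot be told apart. The mutant libraries were made strand-specific after ribosomal RNA depletion, and the morphant libraries were made from poly(A) RNA.

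Sestrins are stress-induced proteins that, in mammals, bind the GATOR2 complex and so lower the activity of the growth kinase complex mTORC1, and that help peroxiredoxins against oxidative stress. Gadd45 proteins are small nuclear proteins that bind other regulators, among them the kinase Map3k4 upstream of p38 and JNK, the replication clamp PCNA and the mitotic kinase Cdk1 with cyclin B. In mammals these genes respond to DNA damage, nutrient and oxidative stress, SESN3 is a target of FoxO factors, and the mRNA of GADD45A is degraded by NMD. Upf1 is the RNA helicase that NMD depends on. Rbm8a and Magoh form a core dimer of the exon junction complex (EJC), which marks spliced mRNA and assists NMD when it lies downstream of a stop codon.

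The gadd45aa mRNA (ENSDARG00000043581) was also one of the transcripts for which the study designed quantitative PCR primers, and this pair is shown because gadd45aa has the largest fold change of the 8 genes below. The RNA-Seq values rest on the gene row of the tables, and the place of the primers on the gene was not examined.
gadd45aa forward: tctcatccaggctttctgct
gadd45aa reverse: gcagaagcggttcacttttc
Both are 20 bases long and are written 5′ to 3′ with no part in capitals.

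Values are FPKM, fragments scaled by gene length and by library size. The number of reads behind each value was recovered from the tables. The libraries held between 73345144 and 93157779 reads at 12 hpf, between 14884582 and 24086370 in the magoh table, between 1561184 and 71708299 in the rbm8a table at 21 hpf and between 9193992 and 95877745 at 27 hpf. The 10 genes with the most reads took between 7.68% and 15.5% of a library. The FPKM scale of the authors weighs each library by a size factor and not by its total. Setting the libraries of a table to equal read totals multiplies the FPKM of a library by 0.32 to 1.49 in the magoh table, by 0.63 to 1.86 and by 0.66 to 1.93 in the rbm8a tables at 21 and 27 hpf, and by 0.99 to 1.02 at 12 hpf. Of 26 marker genes of muscle, neural cells, erythroid cells, epidermis, notochord and yolk syncytial layer, 22 passed the filter on low values in each mutant table and 17 did at 12 hpf.

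The targeted genes gave a check of the labels. The upf1 mRNA was at 30.3 and 31.3 FPKM in the 2 morphant libraries and at 45.2 and 45.9 FPKM in the 2 controls, so the groups did not overlap. With 2 libraries each this is common: both morphants lay above both controls in 32.4% of all genes tested. The share in the direction of upf1 was not counted. In the rbm8a table at 27 hpf, rbm8a was at 3.69, 3.65 and 14.4 FPKM for the labels mutant 1, 2 and 3 and at 2.82, 12.7 and 10.7 FPKM in siblings 1, 2 and 3. One library labelled mutant thus held as much rbm8a mRNA as the high siblings, and one labelled sibling held as little as the low mutants. In the order of the columns the first 3 libraries (mutant 1, sibling 1, mutant 2) were all low and the last 3 (sibling 2, mutant 3, sibling 3) all high. At 21 hpf rbm8a was at 6.99 to 7.28 FPKM in the first 3 columns and at 8.39 to 13.3 FPKM in the last 3. In the magoh table magoh on the FPKM scale did not separate by label or by place, with 17.0, 3.67 and 3.58 FPKM under the mutant label and 4.42, 13.6 and 6.51 FPKM under the sibling label. As RPM, the reads of a gene scaled by the total of its library, magoh did separate by label and not by place. It was at 4.095, 3.811 and 3.737 RPM in the labelled mutants and 4.97, 7.70 and 7.14 RPM in the labelled siblings. On this scale 4.24% of all genes tested in the magoh table were separated by label. Their median log2 difference, labelled mutants minus siblings, was -0.268, so lower values in the labelled mutants were the general direction. For rbm8a at 21 hpf the columns overlapped by place as RPM. The first 3 were at 4.15, 5.91 and 12.8 RPM and the last 3 at 9.22, 8.49 and 15.4 RPM. The targeted gene thus followed the labels in the magoh table on 1 of the scales, where the gap (4.095 against 4.97 RPM) was within counting error. In the rbm8a tables it followed the place of the columns at 27 hpf on both scales and at 21 hpf as FPKM only. The gap at 21 hpf (7.28 against 8.39 FPKM) was also within counting error. By place, 6.64% of all genes tested were separated at 27 hpf as FPKM and 1.83% as RPM. At 21 hpf 5.35% were separated by place as FPKM. The comparisons below therefore speak of the libraries labelled mutant or sibling, the place of a column is not a genotype, and values by place are given without a test.

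In the upf1 morphants 3 of the 8 genes rose: gadd45aa, sesn3 and sesn1. Under limma with Benjamini-Hochberg adjustment, where a call needed both an adjusted p below 0.05 and a 1.5-fold change, 1.12% of the 17057 genes tested were called higher and 1.18% lower, and no sestrin or gadd45 gene fell. The median log2 fold change of the 8 genes was 0.30, against -0.0032 over all genes tested. The 8 genes were chosen with earlier results of these data known, so their count and median are a description.

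gadd45aa was at 10.6 and 13.9 FPKM in the morphants, from 1240 and 1636 reads, and at 0.787 and 0.888 FPKM in the controls, from 72 and 90 reads. The groups lay far apart, since the highest control value had a 95% counting interval (exact Poisson) that ended at 1.09 FPKM and the lowest morphant value one that began at 10.1 FPKM. The group means were 12.3 ± 2.34 FPKM (SD, n = 2) and 0.837 ± 0.0712 FPKM (SD, n = 2), a ratio of 14.7. On the log2(FPKM + 1) scale, which understates the change of a low gene, the difference was 2.84 (SE 0.12, limma adjusted p = 0.00029). With a pseudocount of 0.1 in place of 1 it was 3.71.

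sesn3, the most abundant of the 8 genes per length, was at 58.6 and 80.0 FPKM in the morphants and at 25.0 and 28.2 FPKM in the controls. Both morphant libraries were above both controls, and the ratio of the means was 2.60. The log2 difference was 1.33 (SE 0.14, limma adjusted p = 0.0032).

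sesn1 was at 4.25 and 5.70 FPKM in the morphants and at 2.46 and 2.58 FPKM in the controls. The morphant libraries differed from each other more than the controls did, and the ratio of the means was 1.98. The log2 difference was 0.75 (SE 0.12, limma adjusted p = 0.0092). This call rests on the second morphant library: without it the difference was 0.58, under the 1.5-fold threshold, and with no filter on low values the adjusted p from limma was 0.050261.

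**Figure D1:**
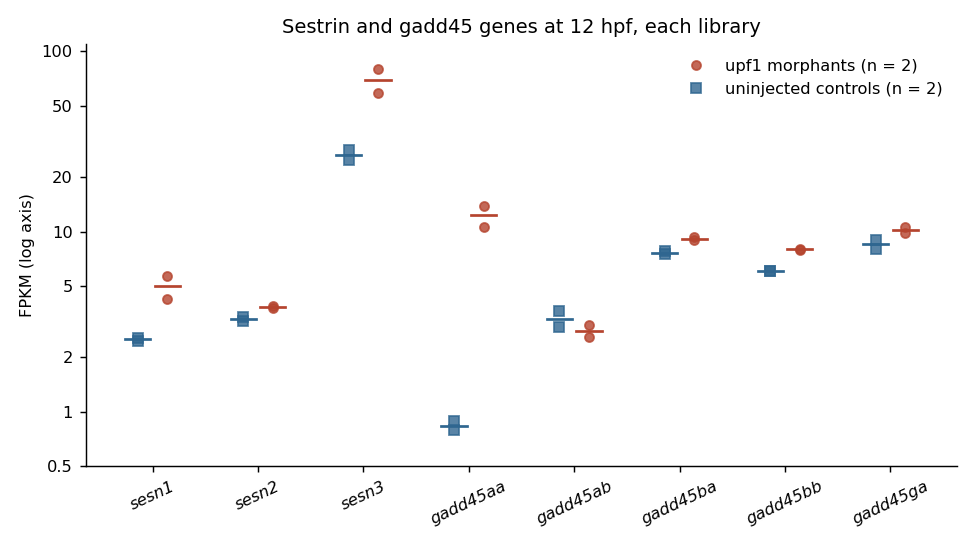
FPKM (log axis) of the 8 genes in each of the 4 libraries at 12 hpf, with circles for upf1 morphants, squares for uninjected controls and short lines for group means (n = 2 each). gadd45aa is the lowest gene in the controls, at 0.787 and 0.888 FPKM, and is at 10.6 and 13.9 FPKM in the morphants.

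The other 5 genes moved little. gadd45bb, known with gadd45ba in zebrafish from somite formation, was at 7.93 and 8.03 FPKM in the morphants and at 6.05 and 6.01 FPKM in the controls. Its log2 difference of 0.35 (SE 0.05, limma adjusted p = 0.0068) passed the p threshold and not the fold threshold. gadd45ba was at 9.28 and 8.95 FPKM against 7.79 and 7.48 FPKM, a log2 difference of 0.23 (SE 0.05, limma adjusted p = 0.024), and likewise stayed under 1.5-fold. By adjusted p alone 5 of the 8 genes were higher, and 11.2% of all genes tested were.

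gadd45ga was at 9.77 and 10.6 FPKM in the morphants and at 9.01 and 7.97 FPKM in the controls, and its difference of 0.24 on the log2 scale did not pass (limma adjusted p = 0.057). sesn2 was at 3.84 and 3.75 FPKM against 3.18 and 3.36 FPKM (log2 difference 0.17, limma adjusted p = 0.10). gadd45ab was the single gene of the 8 whose groups overlapped, with 3.03 and 2.61 FPKM in the morphants and 2.94 and 3.62 FPKM in the controls (log2 difference -0.16, 95% interval -0.41 to 0.08). Both morphant libraries were above both controls in the other 7 genes, where 32.4% of all genes tested had this pattern.

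The paralogs thus differed in size of change within each family. The gadd45 sum over the 5 genes was 40.6 and 44.1 FPKM in the morphants and 26.6 and 26.0 FPKM in the controls. It leaves out a further paralog, gadd45gb.1, at 15.5 to 15.9 FPKM in the morphants and 16.8 FPKM in both controls, so shares of all gadd45 mRNA would be lower. gadd45aa made up 26.2% and 31.6% of that sum in the morphants and 2.96% and 3.42% in the controls. The sestrin sum was 66.7 and 89.5 FPKM in the morphants and 30.7 and 34.2 FPKM in the controls, and sesn3 made up 87.9% and 89.4% of it in the morphants and 81.6% and 82.6% in the controls. The change in gadd45aa was larger than the whole gadd45 sum's relative change, while the sestrin sum moved with its main member.

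**Figure D2:**
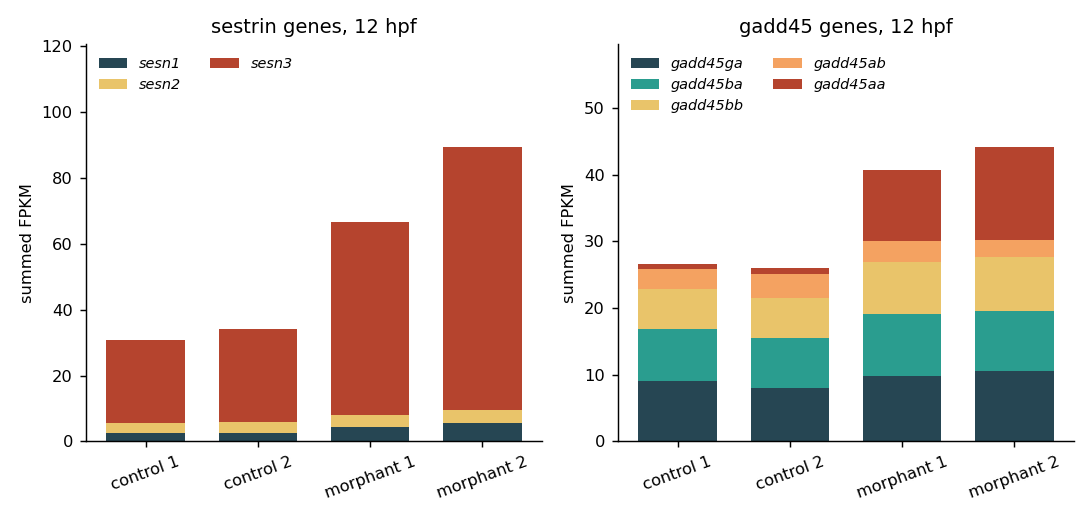
Summed FPKM of the 3 sestrin genes (left) and the 5 gadd45 genes (right) in each library at 12 hpf, with each bar divided by gene. The sestrin bars are mostly sesn3, and the gadd45 bars gain a gadd45aa segment of 10.6 and 13.9 FPKM in the morphants.

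In the order of mean FPKM per length the controls had sesn3 (26.6), gadd45ga (8.49), gadd45ba (7.63), gadd45bb (6.03), gadd45ab (3.28), sesn2 (3.27), sesn1 (2.52) and gadd45aa (0.837). The ranges of gadd45ab and sesn2 overlapped, and those of the other neighbours did not, with 2 libraries each. In the morphants gadd45aa stood second, at 12.3 FPKM, behind sesn3 at 69.3 and ahead of gadd45ga at 10.2, and sesn1 (4.97) stood above sesn2 (3.80) and gadd45ab (2.82).

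Some transcription factors and other regulators known, mostly from mammals, to act on sestrin or GADD45 genes also changed in the morphants. Of 23 tested from a list of 29, 5 rose, 1 fell and the rest were not called, with a median log2 fold change of 0.15. Over all genes tested, 1.12% were called higher and 1.18% lower. The list was chosen with earlier results of these data known, so its count is a description. foxo3b, a FoxO factor, went from 3.80 and 4.41 FPKM in the controls to 29.2 and 40.1 FPKM in the morphants (log2 2.79, SE 0.14). fosab, part of the AP-1 factor, went from 0.935 and 0.793 to 8.08 and 10.3 FPKM (log2 2.44, SE 0.11). mdm2, a ubiquitin ligase, went from 13.8 and 14.4 to 62.7 and 74.2 FPKM (log2 2.20, SE 0.08). The other 2 that rose were mycb (log2 1.15, SE 0.05) and jun (log2 0.61, SE 0.05), and the one that fell was zbtb16a (log2 -0.92, SE 0.05). The limma adjusted p of these 6 genes lay between 0.00018 and 0.0017. The part of FoxO or AP-1 in the change of the 3 members was not tested.

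**Figure D3:**
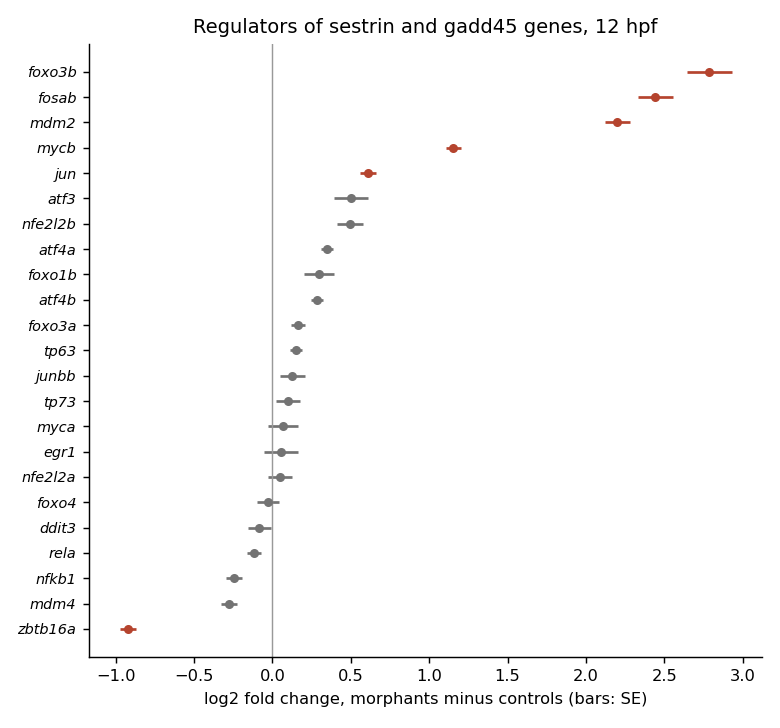
Log2 fold change (morphants minus controls, log2(FPKM + 1) scale) of the 23 regulators tested at 12 hpf, with bars for the SE and red for genes called. foxo3b, fosab and mdm2 are farthest to the right, at 2.79, 2.44 and 2.20, and zbtb16a is at -0.92.

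The proteins that sestrins and Gadd45 act through showed few changes in mRNA that passed both thresholds. Of 28 tested genes of mTORC1 control, among them GATOR2 subunits, mtor and tsc2, none was called, with a median log2 fold change of -0.03 and 12 above 0. Some passed the p threshold and not the fold threshold, such as mtor (log2 -0.31, limma adjusted p = 0.010) and tsc2 (log2 -0.29, limma adjusted p = 0.015). Of 22 tested partners of Gadd45 and stress kinases 1 rose: cdkn1a, the cell cycle inhibitor p21, went from 2.44 and 3.67 FPKM in the controls to 19.9 and 21.2 FPKM in the morphants (log2 2.43, SE 0.14, limma adjusted p = 0.00064). Of 13 tested NMD and EJC genes none was called, upf1 included, whose log2 difference of -0.55 was under the fold threshold, although 12 of the 13 lay above 0 (median 0.19). Of 17 tested cell type markers 5 fell and none rose: the muscle genes actc1b (-0.63) and tpma (-0.62), the notochord collagen gene col2a1a (-0.85) and the yolk syncytial layer genes apoa2 (-0.61) and apoba (-0.79), in log2. col2a1a was the only one called of 3 notochord markers tested, whose median was -0.05. Over all genes tested, 1.12% were called higher and 1.18% lower. The 5 called markers moved with the morphant group, and their part in the change of gadd45aa, sesn3 and sesn1 was not tested.

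In the mutant tables none of the 8 genes was called by label. limma called 0.0% of the 30281 genes tested in the magoh table, 0.0% of 30411 at 21 hpf in the rbm8a table and 0.0% of 28845 at 27 hpf. At an unadjusted p under 0.05 there were 1332, 660 and 4283 genes. The libraries labelled mutant and those labelled sibling overlapped in FPKM in all 8 genes of each table, whereas 3.97%, 4.57% and 20.4% of all genes tested did not overlap in the magoh table and in the rbm8a tables at 21 and 27 hpf. Over all genes, then, far more were separated by label at 27 hpf than in the other tables. As RPM these shares were 4.24%, 3.5% and 23.4%, and 1 of the 8 genes was separated, gadd45ga in the magoh table, at 1.59, 0.635 and 2.66 RPM in the labelled mutants and 3.09, 4.32 and 4.98 RPM in the labelled siblings. Its gap, 2.66 against 3.09 RPM, rests on 64 and 46 reads and is within counting error. The median log2 fold change of the 8 genes was 0.37, 0.05 and 0.09 in these tables, against 0.05, -0.0035 and 0.0071 over all genes. As RPM the median log2 difference of the group means was -0.0335, 0.218 and -0.335 for the 8 genes. It was -0.268, 0.133 and -0.449 over all genes, so the direction depended on the scale. At 27 hpf 1 of the 8 genes lay above 0 as RPM.

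**Figure D4:**
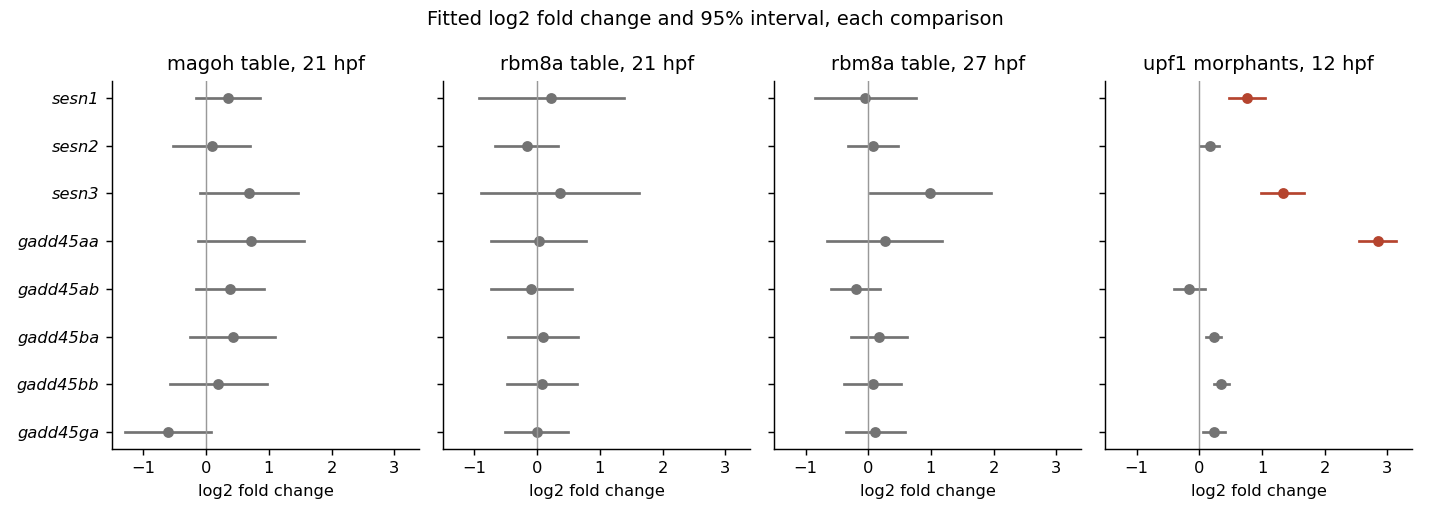
Log2 fold change on the log2(FPKM + 1) scale with its 95% interval for the 8 genes in each comparison, labelled mutant minus sibling or morphant minus control, with red for genes called. gadd45aa (2.84), sesn3 (1.33) and sesn1 (0.75) are called in the morphants, and no interval of a mutant table besides that of sesn3 at 27 hpf (0.03 to 1.95) leaves out 0.

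sesn3 at 27 hpf had the smallest p of the 8 genes in the mutant tables. It was at 12.0, 19.3 and 4.74 FPKM for the labels mutant 1, 2 and 3 and at 7.54, 2.70 and 3.90 FPKM under the sibling label. The library labelled mutant 3 lay below the first sibling, so the groups overlapped. The log2 difference was 0.99 (SE 0.42, limma adjusted p = 0.33), and it ranged from 0.57 to 1.57 as each library was left out, with no adjusted p under 0.15. Beside it 21 of the 22 tested cell type markers were above 0 in the same comparison, with list medians between 0.18 and 0.74 in log2 and none called, and their part in the value of sesn3 was not tested.

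gadd45aa at 27 hpf was at 4.54, 4.50 and 0.605 FPKM under the mutant label and at 2.88, 1.25 and 1.63 FPKM under the sibling label. One labelled mutant library was thus the lowest of the 6, with 5 reads and a 95% counting interval of 0.20 to 1.41 FPKM. The log2 difference was 0.26 (95% interval -0.65 to 1.17). sesn1 was at 3.26, 3.74 and 2.46 FPKM against 6.46, 2.10 and 2.31 FPKM (log2 difference -0.05, 95% interval -0.86 to 0.76), and here the highest library was labelled sibling.

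At 21 hpf in the rbm8a table sesn3 was at 23.3, 4.29 and 4.45 FPKM under the mutant label and at 8.83, 11.8 and 4.76 FPKM under the sibling label. On this scale a single labelled mutant library was high and the other 2 were the lowest of the table. The log2 difference was 0.36 (95% interval -0.90 to 1.62), and without the first labelled mutant it was -0.64. As RPM sesn3 was at 55.1, 30.1 and 17.95 in the labelled mutants and at 29.8, 32.9 and 21.9 in the labelled siblings. The second labelled mutant was thus not among the lowest in RPM. sesn1 was high in 1 library of each label, at 11.5, 6.42 and 4.42 FPKM against 4.39, 12.9 and 4.50 FPKM. gadd45aa was at 3.89, 8.98 and 2.89 FPKM against 5.44, 2.03 and 4.08 FPKM (log2 difference 0.03, 95% interval -0.73 to 0.78), the 8.98 from 33 reads.

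In the magoh table sesn3 was at 26.1, 5.67 and 4.07 FPKM under the mutant label and at 4.83, 5.82 and 3.52 FPKM under the sibling label. The first labelled mutant library stood far above the rest on this scale, with 626 reads, where the other 5 libraries had 284 to 708 reads. As RPM it was at 32.0, against 30.0 and 21.7 in the other labelled mutants and 27.7, 16.8 and 19.7 in the siblings. It was the highest of the 6 libraries on both scales, by a far smaller margin in RPM. On the FPKM scale this library was the highest in 4 of the 8 members, in 18 of the 22 tested cell type markers and in 31.6% of all genes tested, and sesn1, gadd45ab, gadd45ba and gadd45ga were not highest in it. Among the markers, the muscle gene actc1b was at 446.6 FPKM there, at 114.6 FPKM in the library labelled sibling 2 and at 11.2 to 23.0 FPKM in the rest. The part of these markers in the values of sesn3 was not tested.

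gadd45aa in the magoh table was at 14.4, 9.51 and 7.38 FPKM under the mutant label and at 7.21, 3.18 and 8.07 FPKM under the sibling label. Its log2 difference of 0.71 (SE 0.37, limma adjusted p = 0.85) was 0.43 after rescaling to equal read totals, which moved the median of all genes by -0.19. It ranged from 0.15, without the library labelled mutant 1 or sibling 2, to 0.96 as each library was left out. gadd45ga, with the opposite sign, was at 3.47, 0.323 and 1.34 FPKM against 1.45, 4.01 and 2.39 FPKM (log2 difference -0.61, 95% interval -1.29 to 0.07).

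The remaining members varied between libraries of the mutant tables. In the magoh table sesn2 ranged from 1.62 to 4.69 FPKM, gadd45ab from 1.47 to 3.30, gadd45ba from 2.48 to 9.26 and gadd45bb from 1.13 to 5.78. In the rbm8a tables sesn2 ranged from 0.716 to 2.49 FPKM over both times, gadd45ab from 0.363 to 3.26, gadd45bb from 0.456 to 2.21, gadd45ga from 1.32 to 2.67 and gadd45ba from 1.22 to 4.89. As few as 3 reads were behind a value of gadd45ab or gadd45bb, so that the 0.723 FPKM of gadd45ab in 1 labelled mutant library at 21 hpf had a 95% counting interval of 0.15 to 2.11 FPKM. Other values rest on more reads, such as 52 to 487 for gadd45ba in the magoh table.

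By the place of the columns the picture at 27 hpf was another. sesn3 was at 12.0, 7.54 and 19.3 FPKM in columns 1, 2 and 3 and at 2.70, 4.74 and 3.90 FPKM in columns 4, 5 and 6. gadd45aa was at 4.54, 2.88 and 4.50 FPKM in the first 3 columns and at 1.25, 0.605 and 1.63 FPKM in the last 3. Both genes were high in the columns where rbm8a was low, and the ratio of the means, first 3 over last 3, was 3.42 for each and 0.27 for rbm8a. sesn1 (3.26 to 6.46 FPKM against 2.10 to 2.46) and gadd45ba (1.89 to 2.18 FPKM against 1.22 to 1.43) were separated in the same way, with ratios of 1.96 and 1.57.

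Each of the first 3 columns thus lay above each of the last 3 in 4 of the 8 genes at 27 hpf, where 3.19% of all genes tested did. For gadd45ba columns 4 and 5 held few reads, at 1.63 and 1.51 RPM, and their counting intervals reach past 1.89 FPKM. In the rbm8a table at 21 hpf this order held for 1 of the 8, gadd45ba (3.46 to 4.89 FPKM against 2.45 to 2.79), and for 2.88% of all genes. There too the 2.45 FPKM of column 5 rests on few reads, and its counting interval reaches past 3.46 FPKM. In the magoh table it held for none of the 8 and for 1.87% of all genes. In either direction the first and last 3 columns did not overlap in 4.21%, 5.35% and 6.64% of all genes in the magoh table and in the rbm8a tables at 21 and 27 hpf, so at 27 hpf more genes were separated by label (20.4%) than by place. As RPM the shares by place were 3.79%, 4.93% and 1.83%. These counts describe columns, and a place gives no genotype.

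**Figure D5:**
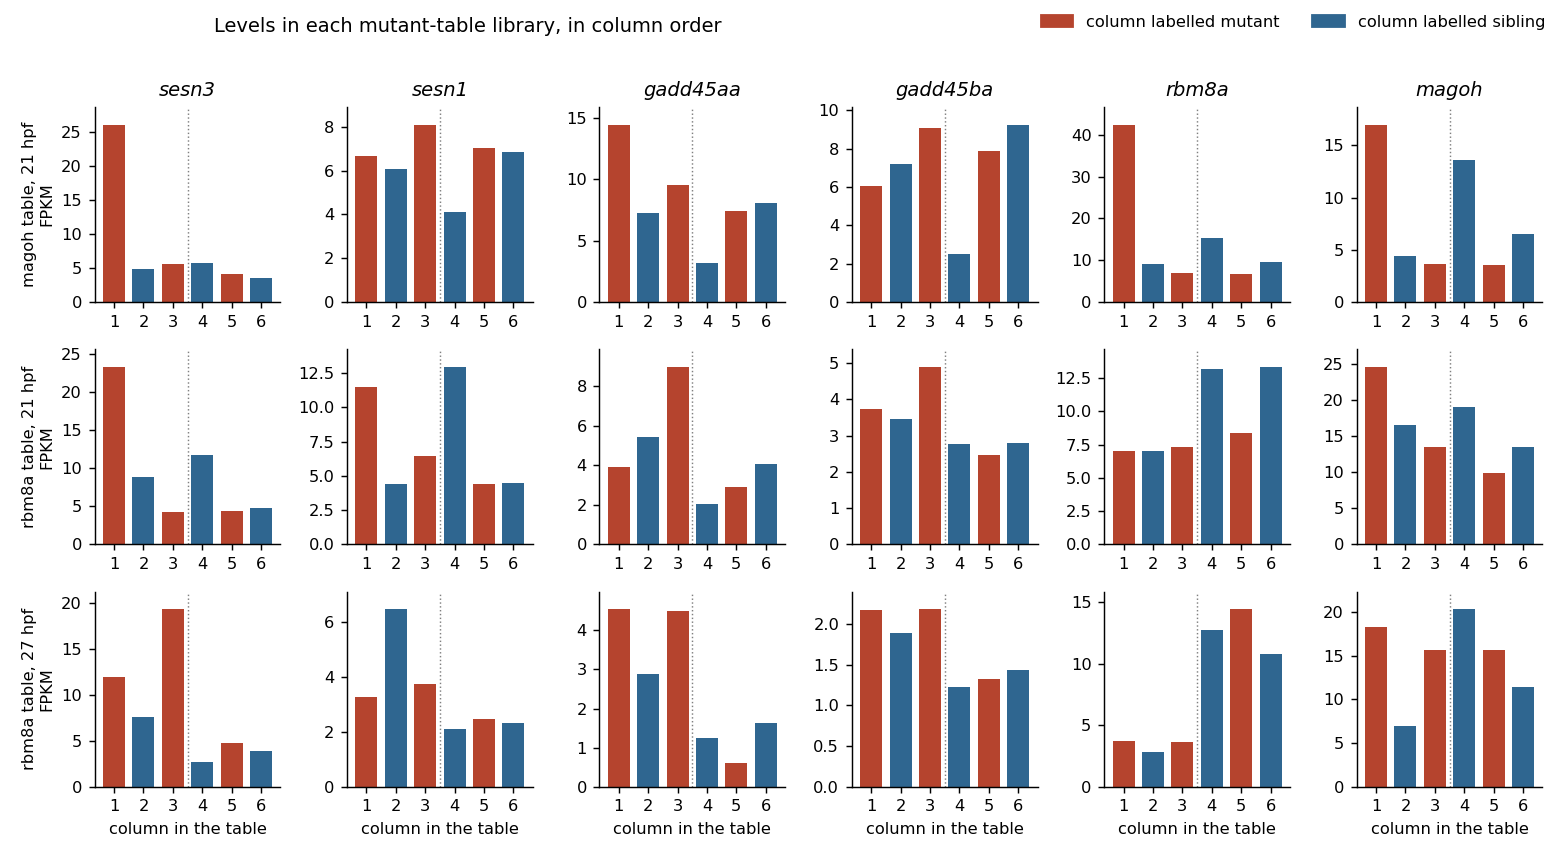
FPKM of 4 members and of rbm8a and magoh in each library of the 3 mutant tables, in the order of the columns, with red bars for columns labelled mutant, blue bars for columns labelled sibling and a dotted line after the third column. In the bottom row rbm8a is at 2.82 to 3.69 FPKM left of the line and at 10.7 to 14.4 FPKM right of it, and sesn3, sesn1, gadd45aa and gadd45ba are all higher left of the line.

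The scale mattered for these separations. In RPM sesn3 at 27 hpf was at 30.1, 38.8 and 73.1 in the first 3 columns and at 8.38, 12.6 and 28.4 in the last 3. It was the single member of the 8 that stayed separated. Over all genes tested, 0.288% lay higher in each of the first 3, and 1.83% were separated in either direction. rbm8a stayed separated as well, at 2.33 to 3.64 against 9.57 to 19.6 RPM. gadd45aa, at 3.83, 4.97 and 5.71 against 1.31, 0.538 and 3.98 RPM, overlapped by 1 library, as did sesn1 and gadd45ba, each through the sixth column.

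In the magoh table the change of scale worked the other way. There sesn3 was at 27.7 to 32.0 RPM in the first 3 columns and at 16.8 to 21.7 in the last 3. gadd45bb was separated as well (2.82 to 6.11 against 2.49 to 2.74), but its gap, 2.82 against 2.74 RPM, rests on 55 and 66 reads and is within counting error. These were 2 of the 8 genes, against 0.205% of all genes tested in this direction and 3.79% in either. The median log2 difference of all genes, first 3 minus last 3, was -0.23 on this scale. In the rbm8a table at 21 hpf none of the 8 was separated in RPM. Of all genes tested there, 0.493% lay higher in each of the first 3 columns and 4.93% were separated in either direction.

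The effect by label did not differ detectably between the mutant tables. In a joint limma fit of 28606 genes no gene passed for rbm8a at 27 hpf minus 21 hpf or for rbm8a minus magoh at 21 hpf, with 1721 and 978 genes at an unadjusted p under 0.05. The difference for sesn3 was 0.63 (SE 0.73, limma adjusted p = 0.88) between the times and -0.32 (SE 0.72, limma adjusted p = 1.00) between rbm8a and magoh. That for gadd45aa was 0.24 (SE 0.63) and -0.69 (SE 0.62), the latter between -0.94 and -0.12 as each library was left out and nearest to 0 without the magoh library labelled mutant 1, and that for sesn1 was -0.28 (SE 0.59) and -0.12 (SE 0.59). No such test was made between the mutants and the morphants, which differ in stage, library type and replicate number.

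The regulators that rose in the morphants were not called in the mutant tables, and none of the 26 tested was. foxo3b had a log2 difference of 0.79 (SE 0.32) in the magoh table and of 0.46 (SE 0.49) and 1.07 (SE 0.50) in the rbm8a tables at 21 and 27 hpf. mdm2 had 0.28 (SE 0.32), 0.02 (SE 0.37) and 1.03 (SE 0.61). The limma adjusted p of these values was 0.35 or more. None was called of the 30 tested genes of mTORC1 control, the 24 partners of Gadd45 and the 14 NMD and EJC genes either.

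Across the 4 tables the levels could be set side by side only within a table, since each was scaled on its own. Within the labelled siblings of the rbm8a table at 27 hpf the order by mean FPKM was sesn3 (4.71), sesn1 (3.62), gadd45aa (1.92), gadd45ga (1.76), gadd45ba (1.51), sesn2 (1.11), gadd45ab (1.05) and gadd45bb (0.832), and each overlapped its neighbour. At 21 hpf the labelled siblings of the rbm8a table held these 5 genes in the first 5 places too, with gadd45ba and gadd45ga exchanged, from sesn3 (8.45 ± 3.53, SD, n = 3) to gadd45ga (2.28 ± 0.46, SD, n = 3), while those of the magoh table began with gadd45ba (6.32 ± 3.48, SD, n = 3), gadd45aa (6.15 ± 2.61, SD, n = 3) and sesn1 (5.68 ± 1.40, SD, n = 3). gadd45aa was last of the 8 in the uninjected controls at 12 hpf and among the first 3 in the labelled siblings of each table at the later stages. The 12 hpf libraries were made from poly(A) RNA and the later ones after ribosomal RNA depletion, so stage and library type cannot be told apart here. The labelled siblings at 27 hpf also include the library with rbm8a at 2.82 FPKM.

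Genes with a pattern like that of the 3 members were sought over the 22 libraries, with log2(FPKM + 1) centred on the mean of each table, among 11517 genes with a mean of at least 1 FPKM in every table. The libraries of a table share its scaling, so these correlations are a description. The genes most like sesn3 were pik3r3a (Pearson r = 0.942), fsta (0.935), ccng1 (0.931), igf2a (0.923) and rnf169 (0.923). Among them ccng1, which encodes cyclin G1, went from 94.2 and 109.8 FPKM in the controls to 347.7 and 394.7 FPKM in the morphants at 12 hpf. In the magoh table sesn3 and the genes most like it were all highest in the library labelled mutant 1, with ccng1 at 242.3 FPKM there and at 6.49 to 28.8 FPKM elsewhere. Setting equal read totals multiplies the FPKM of that library by 0.32, and its part in these r values was not tested. The genes most like gadd45aa were lnx1 (0.927), isg15 (0.926), rbl2 (0.914), exo5 (0.906) and bmb (0.902). All of them were called higher at 12 hpf, by 1.49 to 2.54 in log2 (limma adjusted p of 0.0012 or less). The part of that change in their r values was not tested. The genes most like sesn1 were znfl1 (0.854), myo9aa (0.827), si:ch211-168h21.3 (0.804), fzd5 (0.777) and cyp51 (0.763), none of them called at 12 hpf.

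The genes above were picked as the highest of 11517, so lower values between members do not show how alike the members are. Over the same 22 libraries r was 0.52 between sesn3 and gadd45aa, 0.57 between sesn3 and sesn1, 0.41 between sesn1 and gadd45aa and 0.57 between gadd45aa and gadd45ba. It was -0.43 between gadd45ba and gadd45ga. gadd45ab and gadd45bb had a mean under 1 FPKM in 1 of the tables and were left out of this comparison.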

How the data were processed

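The 4 tables were deposited by the authors with 1 row per Ensembl gene: FPKM per library, a mean of normalized counts over the table (a signal that the authors scaled by size factors), and columns of the authors' own comparisons (fold changes, errors and p-values), which were not used. The authors aligned reads with TopHat2 2.0.14 to GRCz10, counted them per gene with GenomicAlignments, removed genes with no read and used DESeq2, with RUVs factors for the mutants. Reads came from several sequencing runs, and which library came from which run is not given in the sources used here. The table of Rbm8a immunoprecipitation was not used here.

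Libraries were grouped by their labels and column names. The labels give separate libraries and do not say whether replicates came from separate clutches, so p-values measure the spread between libraries. The members and gene lists were chosen with earlier results of these data known. Reads were recovered from the FPKM and the mean normalized count: 100.0% of the values below 200 reads came out whole, to a tolerance of 0.05, in each library. Counting intervals (exact Poisson, 95%) cover counting error only.

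limma 3.58.1 (R 4.3.3, trended prior) was fitted to log2(FPKM + 1), for genes that reached 0.5 FPKM in at least 3 libraries (2 in the morphant table), with 1 RUVs factor in the mutant tables and none in the morphant table. p-values were adjusted over all genes tested. The script was tested on simulated data. Named genes were the members, other symbols beginning gadd45g, the targeted genes, up to 4 called genes of each list with the smallest p, and the 5 genes most like sesn1, sesn3 and gadd45aa; jun and zbtb16a were named, and ccng1 was given with its levels, after their values were seen. One regulator is not reported here. The main fits did not pair libraries by replicate number. Alternatives were other filters, pseudocounts, scalings, RUVs settings, a replicate block and leaving out each library. Rescaling to equal read totals was added after the data were seen. No reference sequence of the members was used here.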

Additional observations from a re-analysis of the deposited data

How the results depend on the processing

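In the morphants gadd45aa and sesn3 were called under every alternative run, and sesn1 under all but 2: without morphant replicate 2 (0.58, limma adjusted p = 0.024, under the fold threshold) and with no filter on low values (adjusted p = 0.050261). Leaving out 1 library in turn gave 401 to 487 called genes, 2 to 3 of them members, and a sesn1 difference of 0.58 to 0.93. The 393 genes called became 901 with a pseudocount of 0.1, 617 with 0.5 and 4082, with 5 members, with no fold threshold. In the mutant tables no member was called under any alternative. Rescaling to equal read totals, chosen after seeing the data, turned the sign of sesn2 (-0.18) and gadd45bb (-0.10) in the magoh table, of gadd45aa (-0.051) in the rbm8a table at 21 hpf, and of sesn2 (-0.044), gadd45bb (-0.30) and gadd45ga (-0.16) at 27 hpf. Quantile normalization turned gadd45aa (-0.10) and gadd45ab (0.022) at 21 hpf. With 2 RUVs factors gadd45ga was at 0.00036 at 21 hpf, and at 27 hpf sesn1 was at 0.17 and 32 genes were called. The cause of these changes was not tested. The depth of the shallowest libraries, 1561184 and 3063243 reads, limits the low genes at 21 hpf.

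Deviations of same-numbered libraries in the mutant tables had r from -0.78 to 0.64, so under these labels they did not deviate alike throughout. Those of the magoh libraries labelled mutant 1 and sibling 2, which differ in number, had r = 0.86. In the morphant table, with 2 libraries per group, every pair has the same r up to its sign, so r = 0.18 cannot decide on pairing. The labels do not say whether replicates of the same number were pairs. A replicate block with no RUVs factor gave 414 called genes and 3 members in the morphants and no called member in the mutant tables. At 21 hpf in the rbm8a table the block, and equally the fit with no RUVs factor, put sesn3 at -0.015, gadd45ab at 0.11 and gadd45bb at -0.10.

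Leaving out 1 library in turn changed the number of called genes from 0 to 29 at 21 hpf (29 without the library labelled mutant 1) and from 0 to 599 at 27 hpf (599 without sibling 2), and from 0 to 17 for the difference between the times (17 without mutant 1 at 21 hpf, or without sibling 2 at 27 hpf) and 0 to 13 for rbm8a minus magoh (13 without mutant 1 of the rbm8a table). The log2 differences then ranged, in the magoh table, from -0.22 to 0.21 for sesn2 and from -0.19 to 0.51 for gadd45bb. In the rbm8a table at 21 hpf they ranged from -0.31 to 0.68 (sesn1), -0.30 to 0.012 (sesn2), -0.64 to 1.04 (sesn3), -0.19 to 0.26 (gadd45aa), -0.31 to 0.21 (gadd45ab), -0.10 to 0.32 (gadd45ba), -0.10 to 0.25 (gadd45bb) and -0.16 to 0.095 (gadd45ga). At 27 hpf they ranged from -0.31 to 0.36 (sesn1), -0.056 to 0.16 (sesn2), -0.16 to 0.95 (gadd45aa), -0.34 to 0.064 (gadd45ab) and -0.12 to 0.21 (gadd45bb). The difference between the times ranged from -0.73 to 0.26 (sesn1), -0.049 to 1.62 (sesn3) and -0.19 to 0.92 (gadd45aa), and that of rbm8a minus magoh from -0.65 to 0.33 (sesn1) and -1.32 to 0.36 (sesn3).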

Other observations

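Beside the 8 genes, 2 more symbols in the tables begin with gadd45g. gadd45gb.1, whose symbol marks one of a set of neighbouring copies so that its reads may be shared with another copy, was at 15.9 and 15.5 FPKM in the upf1 morphants and at 16.8 and 16.8 FPKM in the controls (log2 difference -0.09, limma adjusted p = 0.16). At 27 hpf in the rbm8a table it was at 10.4, 6.13 and 9.36 RPM (reads scaled by the library total) in the first 3 columns and at 14.4, 15.6 and 22.3 in the last 3, which is the direction of rbm8a and the opposite of sesn3, and on the FPKM scale the same columns overlapped (3.38 to 11.7 against 8.67 to 16.7). gadd45gip1, which encodes a mitochondrial ribosome protein named for binding Gadd45, was at 26.3 and 22.1 FPKM in the morphants and at 21.3 and 17.8 FPKM in the controls (log2 difference 0.29, limma adjusted p = 0.091).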
